A study of Mus musculus with 2 samples.

Results

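The cytosolic ribosomal proteins form the protein part of the ribosome that translates the messages of the nuclear genome, with about as many different proteins as there are genes described here. The members are all genes whose symbol is Rpl or Rps followed by a number, with an optional a, x, y or l ending, together with Rplp0, Rplp1, Rplp2 and Rpsa. This rule took 83 of the 56980 genes listed in each library, 32 of the small (40S) subunit and 51 of the large (60S) subunit. It leaves out 321 listed ribosomal protein pseudogenes and the 78 mitochondrial ribosomal proteins, which belong to another ribosome.

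The data are droplet-based (10x Genomics) single-cell RNA sequencing of mouse small intestine, with 1 library labelled model and 1 labelled control. The series title names intestinal immune disorder, simulated microgravity and radiation, and compounds called CB001. The labels do not say what the model animal received, its strain, age or genotype, how many animals each library pools, or which stretch of gut was taken, and no library with the compound is analysed here. Per the labels' protocols, Peyer's patches (the gut's lymphoid follicles) and mesentery were removed and the tissue was digested to single cells. With 1 library per group, every difference between model and control is a difference between 2 libraries with no replicate check, and no test was possible. All intervals are exact 95% intervals and cover counting error only.

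Ribosomal protein genes are among the most strongly transcribed genes of a growing cell. Their messages begin with a run of pyrimidines right at the cap, the TOP motif, through which the growth-controlling kinase mTORC1 and the RNA-binding protein Larp1 set their translation and stability. In the gut, stem cells and their dividing daughters sit in crypts, and absorptive enterocytes leave the crypt, move up the villus and are shed at its tip within days of birth.

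To show what a TOP start looks like in these genes, 50 bases around the RefSeq start (GRCm38.p6) are given for 4 members with a clear run and for a pair of paralogs, Rps27 and Rps27l, on which a later result turns. Each runs 5′ to 3′ on the gene's strand, with 30 bases before the annotated start and 20 from it, and the capitals mark a pyrimidine run that begins with C at the start.
Rpl28, chr7:4792935-4792984, plus strand: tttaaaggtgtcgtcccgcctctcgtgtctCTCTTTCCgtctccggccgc
Rps6, chr4:86857348-86857397, minus strand: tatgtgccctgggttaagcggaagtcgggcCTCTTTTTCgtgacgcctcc
Rpl15, chr14:18270967-18271016, minus strand: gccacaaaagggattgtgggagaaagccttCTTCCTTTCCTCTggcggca
Rps18, chr17:33955646-33955695, minus strand: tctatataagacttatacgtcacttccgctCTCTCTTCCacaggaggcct
Rps27, chr3:90213629-90213678, minus strand: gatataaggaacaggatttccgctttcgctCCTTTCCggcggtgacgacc
Rps27l, first start, chr9:66946056-66946105, plus strand: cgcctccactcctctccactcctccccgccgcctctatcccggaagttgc
Rps27l, second start, chr9:66946383-66946432, plus strand: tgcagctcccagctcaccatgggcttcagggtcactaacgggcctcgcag

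Rpl28 belongs to the large subunit, Rps6 is the small-subunit protein phosphorylated by S6 kinase, and Rpl15 and Rps18 are core proteins of the large and the small subunit. Neither start annotated for Rps27l carries such a run at its first base. Of the members, 61 had a start in the RefSeq promoter table, with 73 start windows. A C followed by 4 pyrimidines at the start itself was found in 14 of the 73 windows (19.2%), against 809 of 32778 windows of other genes (2.47%). The letters CTTTCC, searched on the sense strand within 50 bases of the start, were in 22 member windows (30.1%) and in 4.63% of other windows. On both strands they were in 31.5% and 8.92%. CCGGAAG, the core of an Ets family site, searched on both strands from 250 bases before to 50 after the start, was in 35.6% of member windows and 8.80% of other windows. An annotated start can lie a few bases from the true cap, so a window without the letters says nothing about the message.

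All 83 members had at least 1 UMI (unique molecular identifier, a tag that marks 1 captured RNA molecule) in the kept cells. Of these, 78 had 10000 UMIs or more over both libraries, Rpl32l and Rpl6l had fewer, and Rpl10l, Rpl39l and Rpl3l had under 50. The last 3 are known from testis (Rpl10l, Rpl39l) and from heart and skeletal muscle (Rpl3l). The kept cells numbered 7913 in the model and 7329 in the control library, with medians of 3761 and 3636 UMIs per cell. The median mitochondrial share of a cell was 5.38% in the model and 10.8% in the control library, and 28 barcodes occurred in both. Classes of cells were rebuilt from marker genes, with ribosomal protein genes left out of the clustering, and are called "-like". In enterocyte-like cells all 16 enterocyte markers reached 10 CPM (UMIs scaled to 1000000 UMIs of the class) in both libraries, and in crypt stem or transit-amplifying-like cells 14 of 15 crypt markers did. All 12 T cell markers did so in T cell-like cells and all 10 plasma cell markers in plasma cell-like cells. The same markers named the classes, so these counts are no separate check of the names. Clusters of the enterocyte-like class differed in the markers at 2-fold or more in at least 10% of cells. That led by Clca4a and Ada had 6 of the 16, and that led by Ms4a18 had 9.

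The first question was how much of a cell's messenger pool the ribosomal proteins take up. Over all kept cells they made up 11.7% of UMIs in the model and 10.99% in the control library, and classes ranged far to both sides of this. B cell-like cells, of which only the model library held 50 or more (277 cells), had 19.4%. Crypt-like cells had 17.93% in the model (868 cells) and 17.96% in the control (705 cells), and their median cell had 17.4% and 17.3%. Dendritic cell-like cells had 15.8% in the model and 14.9% in the control. Their median cell had 14.9% in the model and 9.54% in the control, at median depths of 5929 and 2620 UMIs. The share was 11.72% in the model and 11.96% in the control in T cell-like cells, and 11.3% in NK or innate lymphoid-like cells, which reached 50 cells in the model only. Plasma cell-like cells as a whole were much lower, at 6.50% in the model and 6.22% in the control. Immunoglobulin genes made up 51.8% of their UMIs in the model and 53.7% in the control. The class joins unlike clusters. That led by Jchain and Iglv1 (617 cells in the model and 474 in the control) had 5.39% and 5.46%. That led by Ighg2c and Tg (61 and 29 cells) had 13.5% and 14.2%, above the share in T cell-like cells. Enterocyte-like cells were the lowest class, at 3.83% in the model (1284 cells) and 2.20% in the control (1846 cells), with 1.63% and 0.834% in the median cell.

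**Figure D1:**
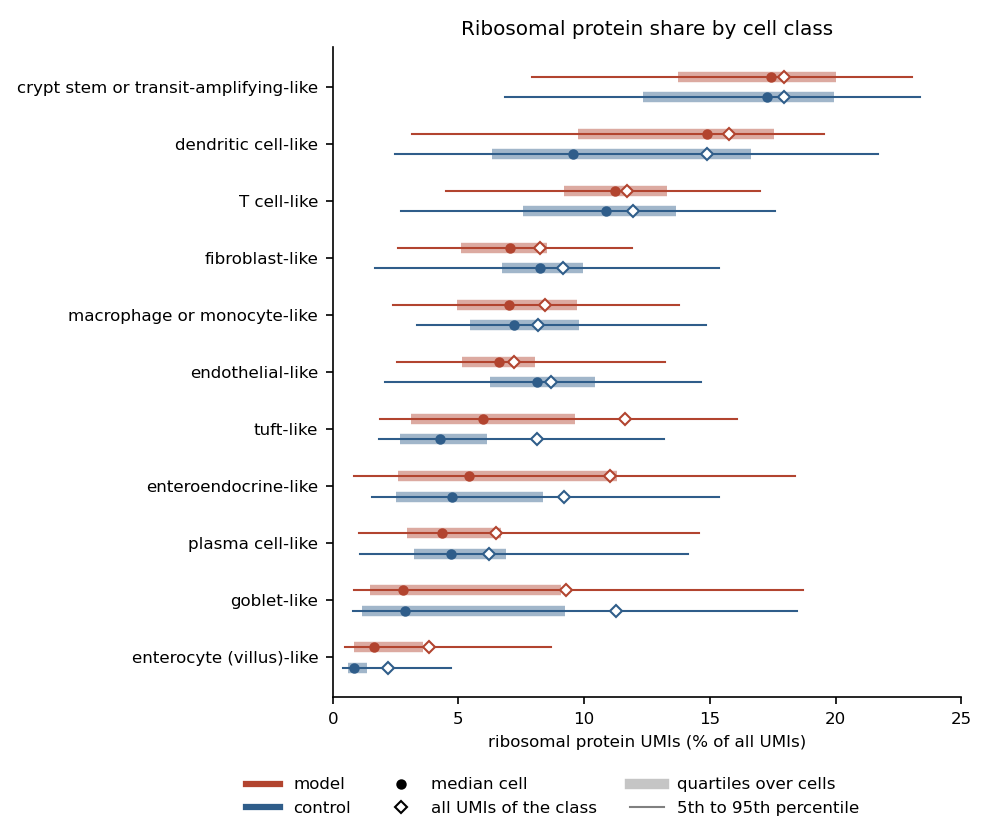
Ribosomal protein UMIs as a percentage of all UMIs, by cell class, with model above control. Dots are the median cell, thick bars the quartiles, thin lines the 5th to 95th percentile of cells, and diamonds the share over all UMIs of the class; crypt-like cells have 17.4% in the model and 17.3% in the control and enterocyte-like cells at 1.63% in the model and 0.834% in the control.

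The secretory classes were mixed. Goblet-like cells had 9.26% in the model and 11.3% in the control over all UMIs, while the median cell had 2.78% and 2.89%. Cells at the 5th and 95th percentile of this class lay at 0.853% and 18.7% in the model and at 0.790% and 18.5% in the control. The class therefore holds cells with shares as low as in enterocytes and cells with shares as high as in crypts. Enteroendocrine-like cells had 11.04% in the model and 9.22% in the control, and tuft-like cells 11.6% and 8.10%. The balance of the subunits was close to constant between classes: small-subunit genes made up 44.9% to 48.4% of ribosomal protein UMIs in every class and library, from smooth muscle or pericyte-like cells of the model to macrophage or monocyte-like cells of the control. Within the enterocyte-like class it varied more. Its cluster led by Clca4a and Ada had 45.5% in the model and 41.7% in the control.

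Listed from high to low, the ribosomal protein share fell in steps from crypt-like to enterocyte-like clusters. The crypt-like cluster led by Olfm4 and Lgr5, genes of intestinal stem cells, had 19.0% in the model and 18.9% in the control. The crypt-like cluster led by the division genes Nusap1 and Ube2c had 17.4% in both. A cluster led by Gsdmc4 and Car4, which met no marker list and stays unnamed, had 14.7% in the model and 14.9% in the control. Its place in this order rests on the share alone, since no lineage order was computed. The 4 enterocyte-like clusters followed well below. The one led by Ms4a18 had 7.30% in the model and 6.32% in the control, and the one led by Cyp1a1 and Fabp1 had 3.87% and 3.44%. The one led by Plb1 and Cubn, a vitamin B12 uptake receptor, had 0.956% in the model and 1.28% in the control. The one led by Clca4a and Ada, the tip enzyme adenosine deaminase, had 0.888% and 0.801%.

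The drop was also one of molecules and not of shares alone. The median cell of the division-gene crypt cluster held 3913 ribosomal protein UMIs in the model and 4114 in the control. The median cell of the Plb1 cluster held 43 and 34, and that of the Ada cluster 25 and 23. In molecules the clusters did not follow the order of the shares. The median cell held 2128 in the model and 2463 in the control in the Olfm4 cluster, and 2691 and 2633 in the Gsdmc4 cluster. It held 111.5 and 91 in the Ms4a18 cluster, fewer than the 316 and 283 of the Cyp1a1 cluster. Captured UMIs also depend on cell size and on losses in preparation. The median mitochondrial share of a cell was 15.5% in the model and 17.9% in the control among enterocyte-like cells, and 5.99% and 7.88% among crypt-like cells, and its part in the difference was not tested.

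When enterocyte-like cells of both libraries were ranked by lower-villus against villus-tip genes and cut into 5 ranges of equal size, the share fell from range to range in both libraries. From the lowest range to the tip it was 5.61%, 3.02%, 1.41%, 1.09% and 0.727% in the model. In the control it was 5.08%, 2.59%, 1.17%, 0.855% and 0.740%.

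**Figure D2:**
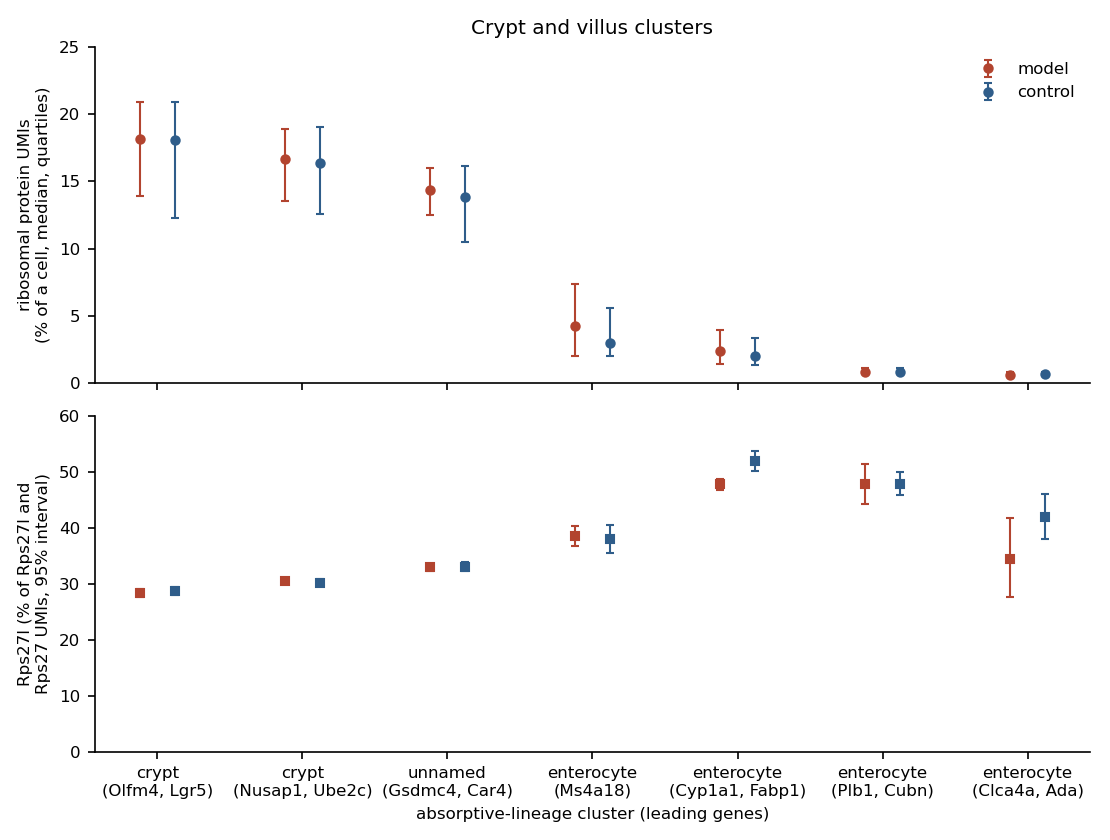
Crypt-like, unnamed (Gsdmc4) and enterocyte-like clusters, each with its leading genes, with model left of control. Upper plot: ribosomal protein share of UMIs in the median cell with quartiles over cells; lower plot: Rps27l as a percentage of Rps27l and Rps27 UMIs with exact 95% intervals. The share drops between the Gsdmc4 cluster and the enterocyte-like clusters while the Rps27l percentage is 28.4% in the model and 28.7% in the control in the Olfm4 cluster and 47.8% and 52.0% in the Cyp1a1 cluster.

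The second comparison set enterocyte-like against crypt-like cells gene by gene, within each library. A gene was measured with at least 50 UMIs over both classes and counted as higher or lower past a ratio of 1.5 or its inverse. In the model library 77 of 79 measured members were lower and 1 was higher. Of all genes measured there, 50% were lower and 20.6% higher. In the control library 78 of 79 members were lower and 0 higher, against 53% lower and 21.8% higher of all genes. The median member had a log2 ratio of -2.28 in the model and -3.10 in the control. The median of all genes measured was itself below 0, at -0.58 in the model and -0.71 in the control, so the members lay well below that shift. No test stands behind the count of 0, since each group is 1 library. The log2 ratios of the 79 members had a Pearson correlation of 0.97 between the libraries once scaled to the ribosomal protein pool; genes are not independent replicates, and the value describes these libraries only.

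Ranked by the higher of the 2 libraries' ratios, the 6 lowest members were Rpl12, Rpl3, Rpl13a, Rpl27a, Rpl14 and Rps2. They were the 6 lowest in the model, while in the control Rpl36a, Rps18, Rps19 and Rps15a lay below Rpl13a and Rpl27a. Rpl12, at the base of the P stalk that recruits the elongation factors, had 320 CPM in enterocyte-like and 2690 CPM in crypt-like cells of the model, a log2 ratio of -3.07. In the control it had 162 CPM in enterocyte-like and 2698 CPM in crypt-like cells, a log2 ratio of -4.06. Rpl3, which lines the peptidyl transferase centre, had log2 ratios of -2.82 in the model and -3.83 in the control. Rps2, a small-subunit protein near the channel where the message enters, followed at -2.68 and -3.80. Rpl13a (-2.81 in the model and -3.55 in the control), Rpl27a (-2.71 and -3.54) and Rpl14 (-2.68 and -3.61) were the others. Rpl13a had only 363 CPM in crypt-like cells of the model and 335 CPM in those of the control. Like several members it has many processed pseudogenes, and how the authors' counting shared reads among such copies is not given in the sources used here.

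The rest of the P stalk was lower to about the median extent. Rplp0, the stalk's scaffold, had 676 CPM in enterocyte-like and 3342 CPM in crypt-like cells of the model, and 355 and 3144 CPM in the control. Its log2 ratios were -2.30 in the model and -3.15 in the control. Those of the acidic stalk proteins Rplp1 (-2.25 in the model and -3.08 in the control) and Rplp2 (-2.32 and -3.22) lay close to it. Rpl5 and Rpl11, which carry the 5S ribosomal RNA into the large subunit and can bind the p53 regulator Mdm2 when assembly stalls, had log2 ratios of -2.48 and -2.39 in the model and of -3.52 and -3.18 in the control.

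At the high end stood 3 alternative forms and 3 ordinary members. Rpl32l, by its name a relative of Rpl32 and with few UMIs, was the only member with a ratio above 1 in both libraries. It had 68 UMIs in enterocyte-like and 36 in crypt-like cells of the model (5.17 and 2.05 CPM), and 43 and 51 UMIs in the control (3.88 and 3.54 CPM). Rps4l, an alternative form of the small-subunit protein Rps4x, came next, with 149 CPM in enterocyte-like and 184 CPM in crypt-like cells of the model and 81.6 and 136 CPM in the control. Its log2 ratios were -0.31 in the model, where it did not pass 1.5, and -0.73 in the control. Rps27l, an alternative form of Rps27, had log2 ratios of -0.76 in the model and -1.34 in the control. Rpl28 (-1.82 and -2.10), Rpl38 (-1.55 and -2.26), known in mice for its effect on the translation of Hox messages, and Rpl41 (-1.71 and -2.28), one of the shortest proteins known, completed the 6 highest, ranked by the lower of the 2 libraries' ratios. They were the 6 highest in the control, while in the model Rpl10 lay above Rpl41 and Rpl28, and members such as Rps27, Rpl7a and Rps29 lay above Rpl28.

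**Figure D3:**
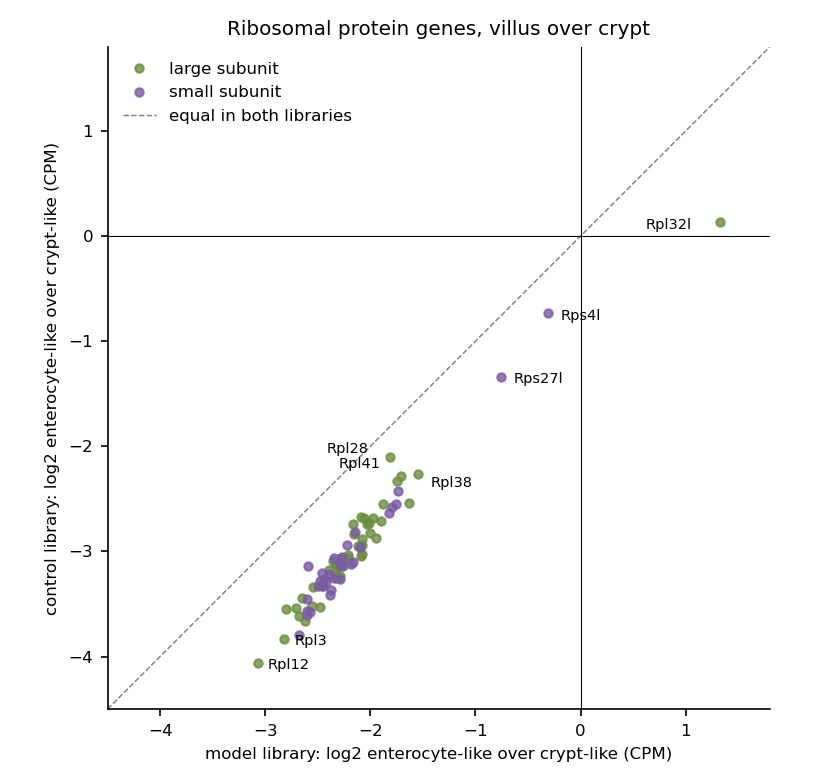
log2 ratio of enterocyte-like over crypt-like CPM for the 79 members measured in both libraries, with the model library on the x axis and the control library on the y axis; each dot is 1 gene, coloured by subunit, and the dashed line marks equal ratios. Rpl12 lies lowest in both libraries, at -3.07 in the model and -4.06 in the control, and Rps27l, Rps4l and Rpl32l stand apart from the other members at the upper right.

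Genes that work with the ribosome were read from further lists in the same cells. The proteins of the cytosolic ribosome outside the rule had a median log2 ratio of -1.39 in the model, with 6 of 7 lower, and of -2.14 in the control, with 7 of 7 lower. Rps3a1 and Rack1, both core proteins of the small subunit, had log2 ratios of -2.36 and -2.37 in the model and -3.14 and -3.38 in the control. Fau, whose product carries a ubiquitin-like domain joined to a ribosomal protein, had a smaller difference, at -0.18 in the model and -0.79 in the control. Of 19 translation factors and related genes with TOP messages, all 19 were lower in both libraries, with medians of -1.85 in the model and -2.59 in the control. Among them Eef1a1, the factor that brings aminoacyl-tRNA to the ribosome, had -1.79 in the model and -2.62 in the control. Tpt1 (-0.81 and -1.32), Eef2, the translocation factor (-0.82 and -0.86), and the initiation factor Eif4b (-1.18 and -1.20) were at the upper end of the list. The histone chaperones Npm1 (-3.78 and -4.44) and Nap1l1 (-5.57 and -5.20) were at its lower end.

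Ribosome assembly genes had a lower median than the members. Of 39 measured, 37 were lower in each library, with median log2 ratios of -3.49 in the model and -4.06 in the control. Ncl, the nucleolar protein nucleolin, had 72.2 CPM in enterocyte-like and 1086 CPM in crypt-like cells of the model, and 53.8 and 1065 CPM in the control. Polr1b, a subunit of RNA polymerase I, which makes ribosomal RNA, had log2 ratios of -5.31 in the model and -6.22 in the control, on 11 and 5 UMIs in enterocyte-like cells. Gar1, of the particles that modify ribosomal RNA, had -5.21 and -5.11, and Rrp9, of the early small-subunit complex, -3.86 and -5.64. The exceptions were Eif6, which keeps the subunits apart (0.30 in the model and 0.22 in the control), and Sbds, which helps to release it (-0.09 and 0.23). In a list of host transcripts of small nucleolar RNAs, 8 of 9 genes were lower in each library. Gas5 was at -3.35 in the model and -3.86 in the control, Snhg5 at -3.33 and -3.70 and Snhg3 at -0.96 and -0.89. The exception, Rmrp, is the RNA of the enzyme RNase MRP and not such a host. It was at 0.52 and 0.17 and had under 50 UMIs in each class.

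The genes that control growth and TOP messages were mixed: 10 of 17 measured were lower and 2 higher in the model, with a median of -0.72, and 10 of 16 lower and 2 higher in the control, with a median of -0.74. Of all genes measured, 50% were lower and 20.6% higher in the model and 53% and 21.8% in the control, so these counts are near the background. Max, the partner of Myc, was higher, at 1.62 in the model and 2.06 in the control, as was Rps6kb2, an S6 kinase, at 0.70 and 1.01. Larp1 was lower, at -1.73 and -1.90, and so was Eif4ebp1, a translation repressor under mTORC1, at -2.39 and -2.40. Myc, a transcription factor that drives ribosome production, had 1.67 CPM in enterocyte-like and 62.1 CPM in crypt-like cells of the model and 1.44 and 70.9 CPM in the control. Mtor itself differed little, with log2 ratios of -0.08 in the model and -0.22 in the control. Mycn had 1 UMI in enterocyte-like cells of each library. Mitochondrial ribosomal proteins had medians of -1.26 in the model, with 66 of 77 lower, and -1.93 in the control, with 74 of 77 lower. Of these genes, which were taken by symbol alone, Mrps36 (0.32 in the model and -0.25 in the control) and Mrpl27 (0.02 and -0.27) were highest and Mrps27 (-3.02 and -3.99) was lowest. The mitochondrially encoded genes went the other way, with medians of 1.00 in the model and 1.01 in the control, and 15 of 15 measured genes higher in the model and 13 of 17 in the control.

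The make-up of the ribosomal protein pool was then compared, as each member's share of all member UMIs, which removes the overall drop. UMIs count molecules and members differ in length and in how well their 3′ ends are caught, so shares are compared within a gene only. Between enterocyte-like and crypt-like cells, 30 of 79 members had a larger pool share in enterocyte-like cells in both libraries, 44 a smaller one and 5 differed in direction. Only 4 passed 1.5 upward in both libraries, Rps4l, Rpl32l, Rps27l and Rpl38, and only Rpl12 and Rpl3 passed it downward. Rps4l had 0.389% of the pool in enterocyte-like and 0.103% in crypt-like cells of the model, and 0.371% and 0.0756% in the control. Rps27l had 1.24% in enterocyte-like and 0.447% in crypt-like cells of the model, and 1.42% and 0.440% in the control. Rpl12 had 0.834% in enterocyte-like and 1.5002% in crypt-like cells of the model and 0.737% and 1.5019% in the control.

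Across crypt, enterocyte, goblet, T and plasma cell-like cells, 77 members could be followed in all 5 classes. Averaged over the libraries, the pool share of the median member varied by 0.50 on the log2 scale between its highest and lowest class, with a smallest range of 0.13 and a largest of 3.02. Rps28, Rpl23 and Rps9 varied least. Among these 77 members the largest range was that of Rps27l, which was lowest in T cell-like cells, at 0.168% in the model and 0.160% in the control. Rps4l was not among the 77, so this ranking does not cover it. It had 149 CPM in enterocyte-like cells of the model and 81.6 CPM in those of the control. In plasma cell-like cells it had 12.4 and 7.15 CPM, on only 74 and 31 UMIs. Rps15a, a small-subunit core protein, was highest in T cell-like cells, at 3.47% in the model and 3.29% in the control, and lowest in enterocyte-like cells, at 1.41% and 1.23%. Rpl28 was highest in enterocyte-like cells, at 1.95% in the model and 2.90% in the control, and lowest in T cell-like cells, at 0.956% and 1.03%.

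The paralogs Rps27 and Rps27l encode nearly the same protein, a zinc-finger protein on the surface of the small subunit, and the human form of Rps27l is a known target gene of p53. Of the UMIs of the pair, Rps27l took 7.73% (interval 7.36% to 8.12%) in T cell-like cells of the model and 7.84% (7.35% to 8.35%) in those of the control. B cell-like cells of the model were at 7.74%. Dendritic cell-like cells had 13.3% in both libraries, and macrophage or monocyte-like cells 18.1% in the model and 15.3% in the control. Crypt-like cells had 29.8% (29.3% to 30.2%) in the model and 29.6% (29.1% to 30.1%) in the control, goblet-like cells 28.8% and 29.1%, and tuft-like cells 25.5% and 25.4%. Plasma cell-like cells, although of the B lineage, had 35.1% (34.0% to 36.2%) in the model and 34.6% (33.3% to 36.0%) in the control. Enterocyte-like cells had the highest percentage, 45.6% (44.8% to 46.5%) in the model and 47.1% (45.9% to 48.2%) in the control.

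In T cell-like cells Rps27l was lower and Rps27 higher than in crypt-like cells. In plasma and enterocyte-like cells both had lower CPM than in crypt-like cells, and Rps27 by the larger factor. Immunoglobulin genes made up 51.8% of all UMIs in plasma cell-like cells of the model and 53.7% in the control. In crypt-like cells they made up 0.076% and 0.103%. This lowers the CPM of all other genes in plasma cell-like cells, and levels of the pair without immunoglobulin UMIs were not computed. Rps27 had 2346 CPM in T cell-like cells of the model and 2248 CPM in those of the control, 1890 and 1881 CPM in crypt-like cells, 748 and 770 CPM in plasma cell-like cells, and 565 and 351 CPM in enterocyte-like cells. Rps27l had 197 CPM in T cell-like cells of the model and 191 CPM in those of the control, 801 and 791 CPM in crypt-like cells, 404 and 408 CPM in plasma cell-like cells and 474 and 312 CPM in enterocyte-like cells. By cluster the Rps27l percentage was 28.4% in the model and 28.7% in the control in the Olfm4 cluster and 32.9% and 33.1% in the unnamed Gsdmc4 cluster. It was 38.5% and 38.0% in the Ms4a18 cluster and 47.8% and 52.0% in the Cyp1a1 cluster. Towards the tip it did not go on increasing. The Plb1 cluster had 47.8% and 47.9%, and the Ada cluster 34.4% (27.6% to 41.7%) in the model and 42.0% (37.9% to 46.1%) in the control. A retrocopy, Rps27rt, was counted apart with 5199 UMIs over all kept cells, and reads of Rps27 and its copies may be divided between them.

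The second pair is Rps4x and Rps4l, and here epithelial and immune cells differed. Rps4l took 16.3% of the pair's UMIs in enterocyte-like cells of the model and 18.4% in those of the control, and 4.68% and 3.76% in crypt-like cells. In T cell-like cells it took 0.846% in the model and 1.02% in the control, and in plasma cell-like cells 0.889% and 0.615%. The stromal classes, on few Rps4l UMIs, did not all lie below crypt-like cells. Endothelial-like cells had 5.08% (3.25% to 7.52%) in the model and 2.45% (1.46% to 3.85%) in the control. Smooth muscle or pericyte-like cells of the model had 5.36% (3.03% to 8.68%), and fibroblast-like cells had 1.57% in the model and 1.91% in the control. At least 1 Rps4l UMI was seen in 4.04% of T cell-like cells of the model and 4.67% of those of the control, at median depths of 2708 and 3074 UMIs. Among crypt-like cells, at median depths of 14724 and 15661 UMIs, it was 69.5% and 62.7%. In the same T cell-like cells the 16 enterocyte markers summed to 2883 CPM in the model and 3531 CPM in the control, against 67053 and 60714 CPM in enterocyte-like cells. The T cell-like class includes a cluster led by Tnfrsf9 and Klre1, with 50 cells in the model and 36 in the control. In that cluster 10 of the 16 enterocyte markers were at 2-fold or more in at least 10% of cells. How much this cluster adds to the values of T cell-like cells was not tested. How much free RNA in the droplets adds to the Rps4l UMIs of T and plasma cell-like cells was not tested either.

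The third comparison set the model library against the control library within each class. Over all kept cells 0 of 80 measured members passed 1.5 in either direction, where 2.81% of all genes measured were higher and 10.7% lower. In crypt-like cells, too, the members were close between the libraries. Of 80 measured members 0 were higher past 1.5 and 1 was lower, Rpl32l with 36 UMIs in the model and 51 in the control; of all genes measured in these cells, 1.76% were higher and 3.66% lower. The median log2 ratio was -0.01, beside -0.02 for all genes. Single members ranged around this by more than counting error. Rps4l had 184 CPM in the model and 136 CPM in the control, a ratio of 1.36 (1.28 to 1.44). Rpl9 had 3407 and 2981 CPM, a ratio of 1.14, and Rpl5 1896 and 1665 CPM, also a ratio of 1.14. At the other end Rpl36 (1465 CPM in the model and 1723 CPM in the control), Rps26 (2093 and 2446 CPM) and Rps15 (1766 and 2064 CPM) had ratios of 0.850, 0.856 and 0.855. Rps27l did not differ beyond counting error, with 801 CPM in the model and 791 CPM in the control, a ratio of 1.01 (0.987 to 1.04). In the P stalk the ratios were 1.06 for Rplp0, 0.952 for Rplp1, 0.933 for Rplp2 and 0.997 for Rpl12, and the other 5S protein, Rpl11, had 1.04.

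In T cell-like cells none of 78 measured members passed 1.5 in either direction, where 2.36% of all genes measured were higher and 3.63% lower, and the median log2 ratio was -0.03 for the members and -0.03 for all genes. With 1 library per group no test bears on this count. Rpl5 was highest, with 1093 CPM in the model and 880 CPM in the control, a ratio of 1.24 (1.20 to 1.29), followed by Rps14 at 1.16 and Rps4x at 1.14. Rps26 at 0.813, Rps25 at 0.827 and Rpl37 at 0.827 were lowest. The acidic stalk proteins Rplp1 and Rplp2 had ratios of 0.910 and 0.905, Rplp0 0.975, Rpl12 0.997 and Rpl11 1.01. The class average joins clusters that differed in opposite directions. The cluster led by Pimreg and Spp1 (85 cells in the model and 63 in the control) had a ribosomal protein share of 11.4% in the model and 14.3% in the control, with 4 of 77 members lower past 1.5, where 6.8% of all genes measured were higher and 5.03% lower. The cluster led by Nlrc3 and Prrt1 (374 and 313 cells) had 12.2% and 10.3%, with 3 of 78 higher, where 10.3% of all genes measured were higher and 7.1% lower. These counts are near or below those of all genes. In the Nlrc3 and Prrt1 cluster the median cell held 1515 UMIs in the model and 1307 in the control, fewer than in T cell-like cells as a whole, and its median mitochondrial share was 6.97% and 8.40%; their part was not tested.

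In plasma cell-like cells 1 of 78 measured members was higher past 1.5 and 0 were lower, where 7% of all genes measured were higher and 3.72% lower. The median log2 ratio was 0.05 for the members and 0.05 for all genes. Within the clusters of the class the median of the members was below 0. It was -0.03 in the cluster led by Jchain and Iglv1 and -0.10 in that led by Ighg2c and Tg. The model over control ratio of the share was likewise 1.05 over the class, but 0.987 and 0.953 in these clusters. The member past 1.5 was Rps4l, with 74 UMIs in the model and 31 in the control, or 12.4 and 7.15 CPM. Its level in T cell-like cells, 17.8 CPM in the model and 18.8 CPM in the control, was no lower. Rps2 had 1301 CPM in the model and 966 CPM in the control, a ratio of 1.35 (1.30 to 1.40), Rpl7 1.32 and Rpl14 1.26. Rps29 (0.842), Rpl39 (0.854) and Rpl35 (0.875) were lowest by the upper bound of the interval, beside Rps25 at 0.874. Rplp0 had 1.11, Rplp1 0.997, Rplp2 1.01, Rpl12 1.03, Rpl5 1.21 and Rpl11 1.14.

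**Figure D4:**
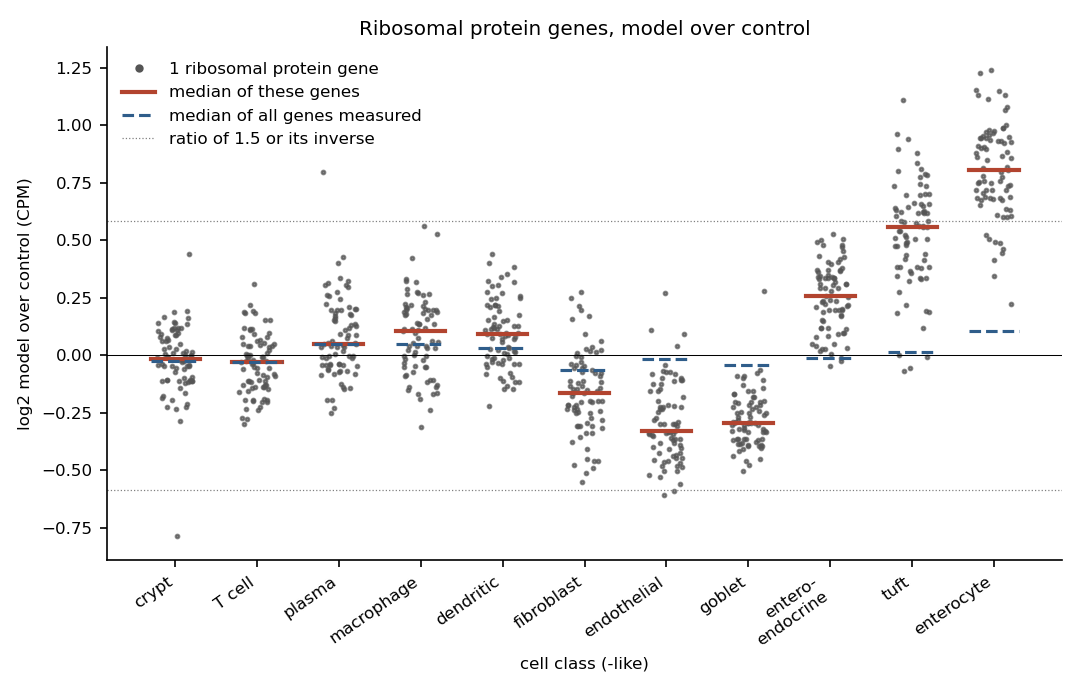
log2 ratio of model over control CPM for every measured member (dots) in 11 cell classes, with the median of the members (solid line) and of all genes measured in the class (dashed line); dotted lines mark a ratio of 1.5 and its inverse. Members centre near 0 in crypt, T and plasma cell-like cells and at 0.81 in enterocyte-like cells.

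In enterocyte-like cells most members were higher in the model. Of 79 measured members 70 were higher in the model past 1.5 and 0 were lower, where 17.5% of all genes measured were higher and 9.46% lower, and the median log2 ratio was 0.81 for the members and 0.11 for all genes. Rps2 had 809 CPM in the model and 342 CPM in the control, a ratio of 2.36 (2.28 to 2.45), Rpl5 339 and 145 CPM, a ratio of 2.35, and Rps7 456 and 205 CPM, a ratio of 2.22. Rpl28 (745 CPM in the model and 638 CPM in the control), Rpl36 (344 and 270 CPM) and Rps15 (400 and 294 CPM) were lowest by the upper bound of the interval, with ratios of 1.17, 1.27 and 1.36. Rpl32l, on 68 UMIs in the model and 43 in the control, had 1.33 (0.896 to 2.00). Rps27l had 474 and 312 CPM, a ratio of 1.52. The P stalk ratios were 1.91 for Rplp0, 1.69 for Rplp1, 1.74 for Rplp2 and 1.97 for Rpl12, and that of Rpl11 was 1.802. The TOP-message factors had a median of 0.76 with 14 of 19 higher, and the mitochondrial ribosomal proteins a median of 0.81 with 62 of 77 higher.

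The libraries held different numbers of cells in each enterocyte-like cluster, and within a cluster the difference was smaller or went the other way. The model library had 564 cells and the control 167 in the Cyp1a1 cluster, and 266 and 135 in the Ms4a18 cluster, the enterocyte-like clusters with the larger ribosomal protein shares. It had 315 and 1041 in the Plb1 cluster and 139 and 503 in the Ada cluster, those with the smaller shares. In a finer clustering (resolution 2) an enterocyte-like cluster led by Plb1 and Nos2 held 4 cells of the model and 440 of the control. One led by Cubn and Slc5a12 held 279 and 537. The Plb1 cluster used here may therefore still join unlike cells in different proportions. Within clusters the median log2 ratio of the members was 0.16 in the Cyp1a1 cluster, 0.21 in the Ms4a18 cluster and 0.18 in the Ada cluster, and -0.43 in the Plb1 cluster. These ratios are of summed UMIs. The median cell's share was 2.35% in the model and 1.96% in the control (Cyp1a1 cluster), and 4.21% and 2.98% (Ms4a18 cluster). It was 0.568% and 0.635% in the Ada cluster and 0.811% and 0.829% in the Plb1 cluster, lower in the model in both. In the Cyp1a1 cluster 0 of 79 members were higher past 1.5 and 0 lower, where 4.29% of all genes measured were higher and 3.75% lower. In the Ms4a18 cluster 1 of 78 was higher and 0 lower, where 6.27% and 5.89% of all genes were. In the Ada cluster 8 of 76 were higher and 1 lower, where 9.2% and 15.4% of all genes were, so the count of higher members is near that of all genes. In the Plb1 cluster 0 of 78 were higher and 15 lower, where 7.66% and 7.82% of all genes were. In the 5 ranges of villus position, from the lowest to the tip, the model over control ratio of the share was 1.104, 1.16, 1.21, 1.27 and 0.982, with 0, 0, 13, 15 and 0 of 79, 78, 78, 78 and 76 members higher past 1.5. Of all genes measured in these ranges 5.51%, 8.13%, 12.8%, 10.9% and 9.29% were higher. The 10 lower-villus genes that set the position, Reg3b and Reg1 among them, summed to 33319 CPM in the model and 16056 CPM in the control, and the 10 tip genes to 9393 and 12176 CPM. Among enterocyte-like cells with at most 10% mitochondrial UMIs (403 cells in the model and 190 in the control) the share was 5.22% in the model and 4.74% in the control, a ratio of 1.1004. Among those with 10% to 15% it was 3.07% and 1.92%, with 15% to 20% 1.73% and 1.248%, and with 20% to 25% 1.16% and 0.942%.

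Smaller classes varied in direction. In tuft-like cells (59 cells in the model and 77 in the control) 33 of 78 members were higher past 1.5 and 0 lower, where 14.1% of all genes measured were higher and 11.9% lower. Rps2 had 2880 CPM in the model and 1335 CPM in the control. The 10 goblet markers summed to 2612 CPM in these cells in the model and to 399 CPM in the control, the 10 tuft markers to 6172 and 10585 CPM and the 15 crypt markers to 2116 and 2049 CPM, and their part in the difference was not tested. In enteroendocrine-like cells 75 of 78 members had a ratio above 1, though none passed 1.5, where 5.71% of all genes measured were higher and 5.94% lower. The median log2 ratio of all genes measured was -0.01 in enteroendocrine-like cells, and their share above 1 was not counted. The class joins 2 clusters. In that led by Sst and Gip (91 cells in the model and 54 in the control) the share was 9.49% in the model and 9.09% in the control, a ratio of 1.04, with 4.33% and 4.55% in the median cell. In that led by Tac1 and Afp (54 and 22 cells) it was 13.3% and 9.49%, a ratio of 1.40. Over all enteroendocrine-like cells the crypt markers summed to 2936 CPM in the model and 1884 CPM in the control. They were not summed by cluster. In goblet-like cells 77 of 78 members had a ratio below 1, and none passed 1.5 either way, where 5.24% of all genes measured were higher and 5.74% lower. The exception was Rps4l, at 113 CPM in the model and 93.3 CPM in the control. All genes measured in goblet-like cells had a median log2 ratio of -0.04, and their share below 1 was not counted. The enterocyte markers summed to 11920 CPM in goblet-like cells of the model and 4764 CPM in those of the control, and the crypt markers to 1904 and 2655 CPM; their part was not tested. In endothelial-like cells (71 cells in the model and 68 in the control) 2 of 77 members, Rpl10a and Rpl38, were lower past 1.5 and none higher, where 9.58% of all genes measured were higher and 13.4% lower.

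The myeloid and stromal classes had no member past 1.5 among 77 measured in each. In dendritic cell-like cells 9.4% of all genes measured were higher and 9.83% lower, in macrophage or monocyte-like cells 9.3% and 6.78%, and in fibroblast-like cells (53 and 113 cells) 7.14% and 13.6%. The members had ratios above 1 in 54 of 77 cases in dendritic cell-like, 52 in macrophage or monocyte-like and 14 in fibroblast-like cells. The median log2 ratio of all genes measured was 0.03, 0.05 and -0.06 in that order. The share of all genes above 1 was not counted, so these member counts have no matching background.

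Within the pool, model and control differed in the same direction for some members in every class, and the difference ran with the length of the coding sequence. For each of the 11 classes with 50 or more cells in both libraries, the members' pool shares were set model over control. All 11 ratios come from the same 2 libraries, so they are not independent of each other. The counts of members that follow were not made for other genes. Of 77 members measured in every class, 8 had a larger share in the model in all 11 classes, among them Rpl3, Rpl5, Rps4x, Rps14 and Rpl14, and 9 a smaller one, Rpl34, Rps21, Rpl39, Rpl36, Rpl26, Rps25, Rpl37, Rpl38 and Rps29. The median coding length (GENCODE gene models of GRCm38, with a length for 80 of 83 members) was 690 bases for the first group and 291 bases for the second. Rpl3 (1209 bases), at the peptidyl transferase centre, had a median log2 pool ratio of 0.24 over the classes and Rps29 (168 bases), a small zinc-finger protein, one of -0.20.

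Over the 77 members the Pearson correlation of the log2 ratio with log2 coding length was 0.79 in plasma cell-like cells (Spearman 0.82), 0.58 in crypt-like, 0.57 in T cell-like and 0.44 in enterocyte-like cells. It was positive in all 11 classes, the lowest being 0.27 in endothelial-like cells. Among the other genes measured it was between -0.24 and 0.17, and -0.10 in plasma cell-like cells (7370 genes). Of those 7370 genes 6234 were over 600 bases, so their lengths were unlike those of the members. In plasma cell-like cells the 9 members of up to 300 bases had a median log2 model over control ratio of -0.14 and the 22 of over 600 bases one of 0.25. Of the other genes there, the 174 of up to 300 bases had 0.04 and the 6234 of over 600 bases 0.04. Those in the ranges between, 440 and 522 genes, had 0.13 and 0.13. The shortest of the other genes thus also lay below those of middle length in this class. These correlations are across genes, which share library, depth and transcript type, and describe these 2 libraries.

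**Figure D5:**
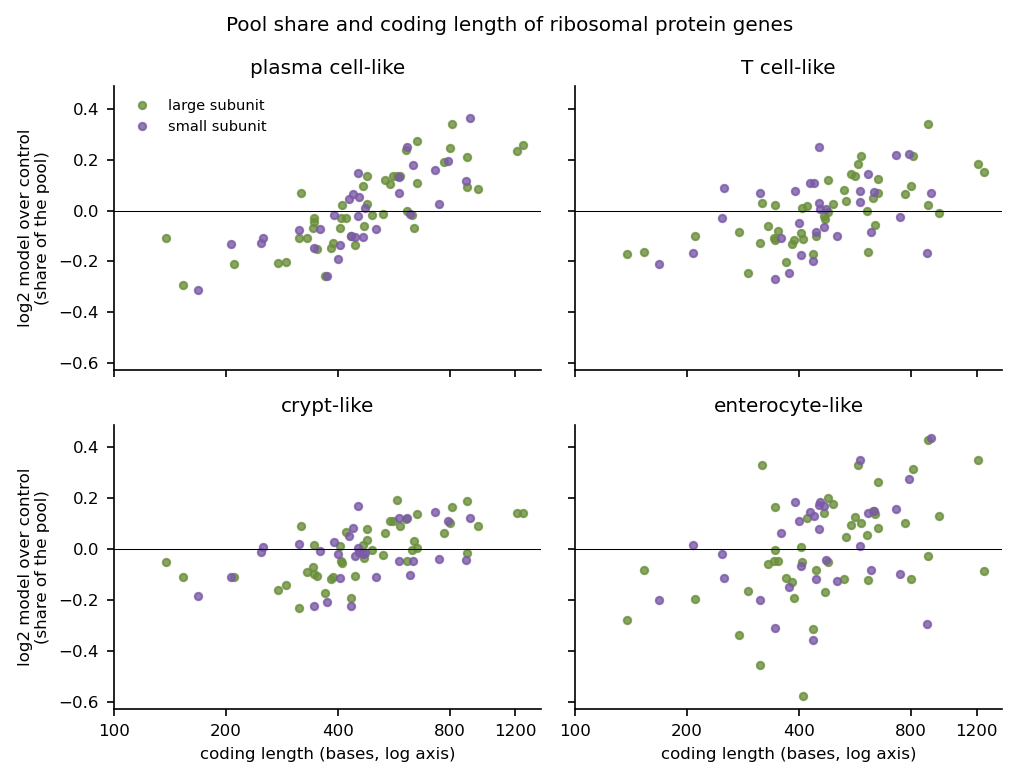
log2 ratio of each member's share of the ribosomal protein pool, model over control, against its coding length on a log axis, in plasma, T, crypt and enterocyte-like cells; each dot is 1 of 77 genes, coloured by subunit. Short members lie mostly below 0 and long ones mostly above, most clearly in plasma cell-like cells, where the Pearson correlation is 0.79.

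Genes that share the TOP motif with the members were also compared between the libraries. In crypt-like cells 17 of 19 factors with TOP messages had an interval above a ratio of 1, as had 14.5% of all genes measured, with a median log2 ratio of 0.16, and 0 passed 1.5. The median was also 0.16 in T cell-like cells, with 14 of 19 intervals above 1, against 7.67% of all genes. It was 0.28 in plasma cell-like cells, with 17 of 19 intervals above 1, against 13% of all genes. Whether an interval clears 1 depends on the number of UMIs as well as on the ratio. The percentages of all genes were not matched for UMI number, so they are not a like background for these factors. Tpt1 had 6882 CPM in the model and 5558 CPM in the control in crypt-like cells, and 7222 and 5605 CPM in T cell-like cells. Btf3, a subunit of the complex that shields nascent chains, had 1398 and 1084 CPM in crypt-like cells, a ratio of 1.29. Naca, its partner, had 1492 and 1189 CPM, a ratio of 1.26. The ribosome assembly genes had medians of -0.02 in crypt-like, -0.11 in T cell-like and 0.13 in plasma cell-like cells.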

How the data were processed

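The authors deposited 1 matrix per library of whole-number counts of UMIs, with no normalisation. The file headers name Cell Ranger 7.0.1; Cell Ranger 4.0 and GRCm39 appear in the submitters' processing notes. The sources used here give neither the annotation nor how introns were handled. RefSeq starts (GRCm38.p6) and coding lengths come from another build and were joined by symbol or gene identifier. The libraries held 76701215 UMIs over 11468 barcodes (model) and 61370270 over 10259 (control).

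Kept cells had at least 500 UMIs and 200 detected genes, and no more than 25% mitochondrial UMIs. Scrublet called 0 cells in either library, so it did not work, and no doublets were removed. After scaling to 10000 UMIs, 2000 variable genes, with ribosomal protein, mitochondrial, immunoglobulin and T cell receptor variable genes excluded, gave 30 principal components, 15 neighbours and 33 Leiden clusters at resolution 1 (scanpy 1.11.5, igraph 0.11.9). A cluster name needed 3 markers at 2-fold or more in at least 10% of cells, and 3 clusters stayed unnamed.

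UMIs were summed per class and library and scaled to the class total. Shares have Clopper-Pearson and ratios exact binomial intervals (SciPy 1.17.1), which were tested on simulated data. Between libraries, the 3 highest and 3 lowest members by the interval bound nearest 1 are named in 4 classes; between enterocyte-like and crypt-like cells, the 6 highest and lowest; besides these, the P stalk, the 5S proteins, paralogs, and leading and last genes of the other lists, mainly in enterocyte over crypt. Rpl32l and Rpl6l, members chosen for mention after their symbols were seen, and the T cell clusters and smaller classes stand outside this rule. The members and lists were chosen with earlier results of these data known. The alternatives tried changed the mitochondrial limit, depth, naming, scaling, UMI minimum and ratio.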

Additional observations from a re-analysis of the deposited data

Results flagged for a closer look

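The ribosomal protein share of UMIs, set model over control, lay on opposite sides of 1 in different cell classes, which drew attention to 5 of them. The share was higher in the model in enterocyte-like cells, with a ratio of 1.74 (1.73 to 1.75), in tuft-like cells, with 1.43 (1.42 to 1.45), and in enteroendocrine-like cells, with 1.20. That class joins a cluster led by Sst and Gip with a ratio of 1.04 and a cluster led by Tac1 and Afp with 1.40. It was lower in the model in goblet-like cells, with 0.822, and in endothelial-like cells, with 0.831. With 1 library per group the difference between classes was not tested.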

How the results depend on the processing

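No paired analysis was possible because each group is 1 library. Of 839 alternative values, 11 reversed; among summary values 147 kept their call or lay within the limits set and 66 moved, 383 single-member values stayed within the limits and 232 moved, and 606 single-member values kept their sign against 18 that did not. The log2 model over control ratio of the share was -0.0027 in crypt-like, 0.80 in enterocyte-like, -0.029 in T cell-like and 0.064 in plasma cell-like cells. In that order of classes, with those that moved named, a mitochondrial limit of 10% gave crypt -0.039, enterocyte 0.14 and T -0.048; no limit gave crypt -0.013, enterocyte 0.66, T -0.072 and plasma 0.013. Without mitochondrial UMIs it was crypt -0.020 and enterocyte 0.74. Thinning cells to 1000 UMIs gave crypt 0.046, enterocyte 1.00, T 0.056 and plasma -0.025. Leaving out the 8% highest Scrublet scores gave enterocyte 0.83, T -0.052 and plasma 0.020, and resolution 2 enterocyte 0.74. Naming by marker score gave crypt -0.0069, enterocyte 0.77, T -0.058 and plasma -0.012. Within enterocyte-like clusters it was 0.17 (Cyp1a1), 0.15 (Ada), 0.21 (Ms4a18) and -0.42 (Plb1), and within position ranges, lowest to tip, 0.14, 0.22, 0.27, 0.35 and -0.026. Chosen after seeing the data, equal weight over clusters gave crypt 0.0055, enterocyte 0.14, T -0.057 and plasma -0.055, leaving out immunoglobulin UMIs plasma 0.0046, and leaving out the low-RNA and enterocyte-gene clusters T -0.079.

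Of the counts past 1.5, the 70 members higher in enterocyte-like cells became 1 at a mitochondrial limit of 10%, 0 when scaled to ribosomal protein UMIs, 0, 0, 13, 15 and 0 in the position ranges, and 0, 8, 1 and 0 in the Cyp1a1, Ada, Ms4a18 and Plb1 clusters. With at least 1 UMI, crypt-like cells had 1 higher and 2 lower, enterocyte-like 1 lower, T cell-like 1 lower and plasma cell-like 3 higher. The 1 lower crypt member became 0 with thinning or marker scores. The 1 higher plasma cell member became 0 with no mitochondrial limit, thinning, Scrublet or marker scores. The lower ratio limit tried gave 1 higher in crypt-like and 5 in plasma cell-like cells. Enterocyte over crypt, 0 higher in the control became 1 at a mitochondrial limit of 10% or after dividing by the median gene, and 2 with at least 1 UMI; 1 higher in the model became 0 with thinning. Scaled to ribosomal protein UMIs, 5 were higher and 2 lower in the model and 8 and 4 in the control. That scaling turned Rps27l to 1.47, Rpl28 to 0.41, Rpl38 to 0.68 and Rpl41 to 0.52 (log2) in the model, and Rps4l to 2.30, Rps27l to 1.69, Rpl28 to 0.93, Rpl38 to 0.77 and Rpl41 to 0.75 in the control, since it removes the overall drop by construction. The cause of the other changes was not tested. Low UMI numbers limit Rpl32l, Rps4l outside epithelium, tip enterocytes and the classes under 100 cells.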

Other observations

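Alternative forms known from other tissues were at the edge of detection. Rpl39l, known from testis, had 25 UMIs in the model and 10 in the control over all kept cells, of which 16 and 7 were in T cell-like cells. Rpl3l, known from muscle, had 2 UMIs in each library, and Rpl10l, known from testis, 0 in the model and 1 in the control. Rpl6l had 96 UMIs in each. In Paneth-like cells of the control library, the only library with 50 or more, Rps27l took 37.1% (33.6% to 40.7%) of the pair's UMIs. In tuft-like cells Rps4l took 6.75% of the Rps4 pair in the model and 11.2% in the control.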
